A study of Mus musculus with 12 samples.

Results

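The protein-coding genes of mouse chromosomes 2, 7, 8, 10 and 18 were followed by their position along the chromosome, to see whether the differences in RNA level between ΔN-VEGF and wild-type NIH3T3 cells covered whole chromosomes or segments. These chromosomes were chosen on earlier values of the same line differences in the same samples, so the line differences are given as a description, and counts of calls on them stand only beside their background. A gene was a member if it lay on 1 of the 5 chromosomes and averaged 1 CPM (counts scaled to the library total) or more over the 12 samples. There were 3158 members among 6448 protein-coding genes on these chromosomes, with 872 on chromosome 2, 836 on chromosome 7, 605 on chromosome 8, 543 on chromosome 10 and 302 on chromosome 18. The remaining chromosomes held 7726 protein-coding genes at that level and served as the reference. NIH3T3 is an established line of mouse embryo fibroblasts. ΔN-VEGF cells are NIH3T3 cells in which CRISPR-Cas9 had removed, from both copies of Vegfa on chromosome 17, the part that encodes N-VEGF, and in which a recombinase was later used to excise the marker cassettes. They were derived from single-cell clones, and the sources used here do not name the clone that was sequenced, so clone and deletion cannot be told apart. Each line was grown in normoxia, or for 16 h in hypoxia (below 0.2% oxygen), with 3 samples in each of the 4 groups. Whether the samples of a group came from separate cultures is not stated in the labels, so the spread given here may be partly technical.

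As background, the RNA of a gene tends to follow, on average and incompletely, the number of copies of the gene in the cell, and established lines such as NIH3T3 carry abnormal chromosome numbers that can differ from clone to clone. A gain or loss of a whole chromosome touches genes of unrelated function all along it, whereas a gain or loss of a segment stops at a breakpoint, and a gene regulated for its function stands apart from its neighbours. DNA was not measured in these samples, and RNA levels alone do not give copy numbers. Several families with known roles in hypoxia are scattered over these chromosomes, among them the glycolytic enzymes Ldha, Gpi1 and Aldoa and the collagens IV and VI.

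Counts on genes numbered 30519052 to 43056690 per sample. Replicate 2 of wild-type normoxia stood apart from replicates 1 and 3 of its group, with correlations of log2 CPM of 0.956 and 0.957 against 0.996 between the other two. Replicate 2 of ΔN-VEGF normoxia did so to a lesser extent, with 0.986 against 0.996. Results in normoxia are therefore also given without both replicates 2, while in hypoxia all correlations were at least 0.994. Replicate 2 of wild-type hypoxia stood slightly apart, with a chi-square per gene of 16 and 17.4 against replicates 1 and 3, which had 2.88 between them. Fibroblast markers (Col1a1, Col1a2, Thy1, Vim, S100a4 and Pdgfra) summed to between 10700 and 27000 CPM in every sample. The 4 epithelial markers summed to between 0.355 and 2.41 CPM, with Epcam at 0 in every sample and Cdh1 at 0.284 to 1.91 CPM. Of the 3 leukocyte markers, Ptprc and Adgre1 were at or near 0 and Cd68 read 2.84 to 6.67 CPM. Of 3 endothelial markers, 2 were under 1 CPM in every sample, and the sum ranged from 1.77 to 7.77 CPM in 3 of the groups and from 20 to 25 CPM in ΔN-VEGF hypoxia, almost all of it Cdh5, which lies on chromosome 8. Vegfa itself read 39.4 to 86.1 CPM in wild-type normoxia, 272 to 291 CPM in wild-type hypoxia, 34.2 to 37.3 CPM in ΔN-VEGF normoxia and 419 to 437 CPM in ΔN-VEGF hypoxia. A count over the whole gene does not show whether the small deleted part was lost.

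The medians of the 5 chromosomes differed between the lines by small amounts, in the same direction in both oxygen conditions. For each gene, the line difference is the mean log2 CPM in ΔN-VEGF minus that in wild-type cells, and chromosome values are medians over members relative to the median of the reference (-0.01 in hypoxia and 0.02 in normoxia). Chromosome 7 was higher in ΔN-VEGF cells by 0.17 in hypoxia and 0.12 in normoxia, chromosome 10 by 0.15 and 0.13, and chromosome 8 by 0.12 and 0.10. Chromosome 2 was lower, with -0.14 and -0.10, and so was chromosome 18, with -0.09 and -0.19. On a linear scale the shifts in hypoxia were 1.12-fold for chromosome 7, 1.11-fold for chromosome 10 and 1.09-fold for chromosome 8, and 0.906-fold and 0.939-fold for chromosomes 2 and 18. Single genes varied far more than the chromosomes did: the quartiles of the members' own differences in hypoxia were -0.09 and 0.45 on chromosome 7 and -0.43 and 0.08 on chromosome 2, against -0.28 and 0.24 in the reference. In hypoxia 67.0% of members on chromosome 7, 63.0% on chromosome 10 and 62.1% on chromosome 8 were higher in ΔN-VEGF cells, against 32.0% on chromosome 2, 37.1% on chromosome 18 and 48.6% in the reference. In normoxia the same percentages were 68.3%, 68.9% and 69.1%, then 39.6% and 26.5%, against 53.4%.

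**Figure D1:**
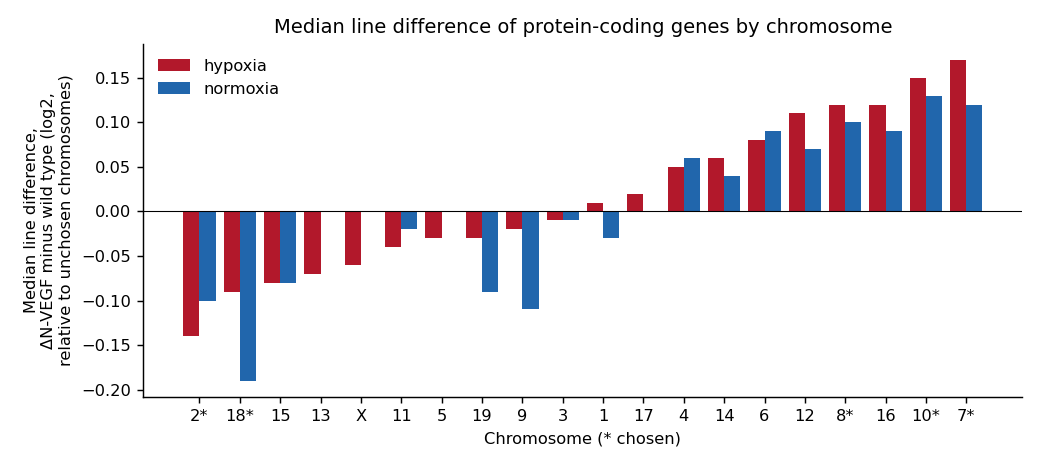
Median line difference (ΔN-VEGF minus wild type, log2 CPM, relative to the unchosen chromosomes) of protein-coding genes on each of the 20 chromosomes, in hypoxia (red bars) and normoxia (blue bars), ordered by the value in hypoxia. Asterisks mark the 5 chosen chromosomes, which lie at both ends, next to unchosen chromosomes 16 and 12 whose bars are as long as that of chromosome 8 or nearly so.

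The choice of 5 chromosomes had no gap behind it. Chromosome 16, which was not chosen, stood at 0.12 in hypoxia and 0.09 in normoxia, level with chromosome 8 in hypoxia, and chromosome 12 stood at 0.11 and 0.07. By size of the shift, chromosomes 7, 10, 2 and 8 ranked 1 to 4 of 20 in hypoxia and chromosome 18 ranked 7. In normoxia chromosome 18 ranked 1 and chromosome 8 ranked 6, while chromosome 9, also not chosen, ranked 4 with -0.11. The level limit was likewise no gap: the 46 members at 1 to 1.2 CPM had a median absolute line difference of 0.40 in hypoxia and 0.46 in normoxia, and the 47 genes just below it, at 0.8 to 1 CPM, had 0.64 and 0.46. Among all members, 74 were under 1 CPM on average in only 1 of the lines in hypoxia, and 46 in normoxia.

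Each of the 5 shifts was present in every sample. The level of a chromosome in a sample is the median over members of log2 CPM, after subtraction of each gene's average across the 12 samples, relative to the reference. On chromosome 7 the 3 wild-type hypoxia samples stood at -0.05, 0.04 and -0.05 and the 3 ΔN-VEGF hypoxia samples at 0.15, 0.16 and 0.14. On chromosome 10 they stood at -0.05, -0.04 and -0.04 against 0.08, 0.08 and 0.09. On chromosome 8 they stood at -0.08, 0.00 and -0.08 against 0.08, 0.08 and 0.07. The lines thus did not overlap on these 3 chromosomes, and ΔN-VEGF cells were higher. Without wild-type replicate 2 the shifts in hypoxia were 0.20 on chromosome 7, 0.16 on chromosome 10 and 0.13 on chromosome 8. On chromosome 2 the wild-type hypoxia samples stood at 0.03, 0.04 and 0.03 and the ΔN-VEGF samples at -0.10, -0.09 and -0.12. On chromosome 18 the values were 0.09, 0.03 and 0.10 against -0.03, -0.05 and -0.01, again with no overlap. In normoxia the lines did not overlap on any of the 5 chromosomes either, although the gaps were narrow on chromosome 2, where the lowest wild-type sample stood at 0.05 and the highest ΔN-VEGF sample at 0.02, and on chromosome 18, where replicate 2 of each line stood at 0.01 and -0.03 while the others stood at 0.11 and 0.11 in wild-type cells and at -0.14 and -0.12 in ΔN-VEGF cells. Without both replicates 2 the normoxia shift was -0.22 on chromosome 18, 0.07 on chromosome 7, -0.07 on chromosome 2, 0.10 on chromosome 8 and 0.12 on chromosome 10.

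**Figure D2:**
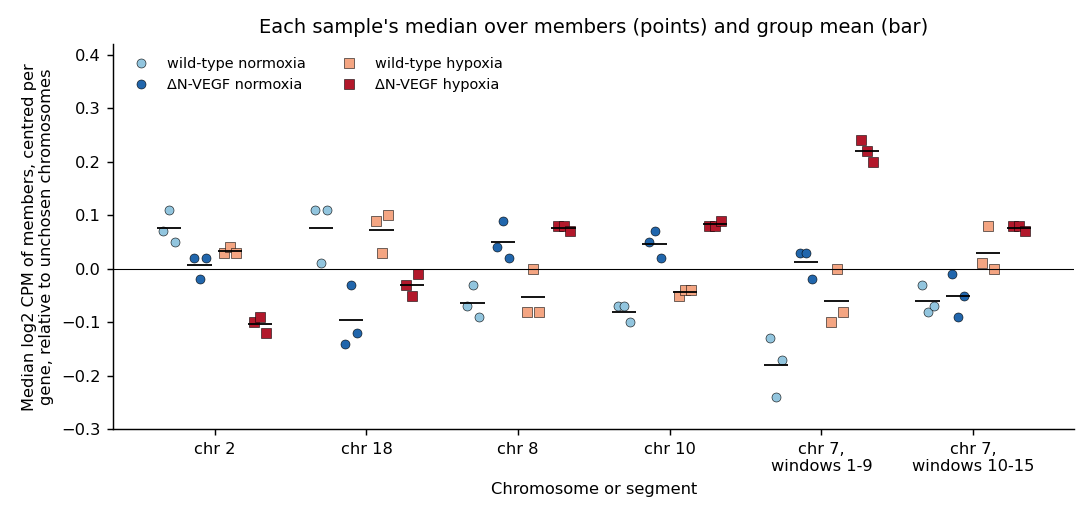
Level of each chromosome, and of both parts of chromosome 7, in each of the 12 samples (points) with group means (bars), as the median over members of centred log2 CPM relative to the unchosen chromosomes. The ΔN-VEGF points (dark) and wild-type points (pale) separate within each condition everywhere except in windows 10-15 of chromosome 7.

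Counts of members past a threshold are given beside those of all tested genes. In hypoxia 1144 members (36.2%) were higher in every ΔN-VEGF sample than in every wild-type sample, where 29.7% of all 14724 tested genes were, and 979 were lower in every sample, where 30.1% of all tested genes were. By chromosome the higher and lower percentages were 47.4% and 18.1% on chromosome 7, 47.5% and 24.5% on chromosome 10, 44.5% and 24.0% on chromosome 8, 18.5% and 48.1% on chromosome 2, and 19.9% and 43.4% on chromosome 18. In normoxia the backgrounds were 6.56% higher and 9.72% lower, and the members' percentages were 12.1% and 4.90% on chromosome 7, 12.9% and 6.45% on chromosome 10, 14.5% and 5.29% on chromosome 8, 4.24% and 15.6% on chromosome 2, and 2.98% and 23.8% on chromosome 18. Calls at an adjusted p below 0.05 and at least 2-fold (edgeR quasi-likelihood test) were far fewer. In hypoxia 88 members were called higher in ΔN-VEGF cells and 95 lower, with backgrounds of 2.87% and 3.94% of tested genes. Scaling by library totals instead of TMM (trimmed mean of M values) gave 52 and 179, so that 22.5% of the calls were higher in place of 48.1%. Over all tested genes the percentage turned likewise, to 20.3% in place of 42.1%. In normoxia 14 were called higher and 38 lower, with backgrounds of 0.618% and 1.55%. With a replicate block for the normoxia samples alone, whose same-numbered samples deviated together between the lines, 33 were called higher and 68 lower. Over all tested genes the same block gave 178 and 533. The rule for the chromosomes used these contrasts, so nothing is read from the counts.

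Within the chromosomes the shifts were spread over most of the length, with exceptions on chromosomes 7 and 10. Genes were assigned by their midpoint to windows of 10 Mb (GRCm38), and 69 windows held at least 5 members. In hypoxia 61 of these 69 windows (88.4%) had a median with the sign of their own chromosome, and in normoxia 63 (91.3%). On the other chromosomes the same was true of 132 of 195 windows (67.7%) in hypoxia and 66.7% in normoxia. Some unchosen chromosomes matched the chosen ones, with all 10 windows on chromosome 16 and 10 of 11 on chromosome 15 in hypoxia. In normoxia chromosome 9 had all 13. Others were far lower, such as chromosome 11 with 5 of 13 in hypoxia. A chromosome with a shifted median has more windows on 1 side by construction, so the comparison is a description. Window medians in hypoxia and normoxia, which come from separate samples, correlated at a Pearson r of 0.74 (Spearman's rho 0.77) over the 69 windows and had the same sign in 59. On the other chromosomes r was 0.45 over 195 windows. Windows of 1 chromosome share its overall shift, and within single chromosomes r was 0.36 over 19 windows on chromosome 2, 0.47 over 15 on chromosome 7, -0.34 over 13 on chromosome 8 and 0.26 over 9 on chromosome 18. On chromosome 10 it was 0.74 over 13 windows, but rho was 0.24, and 1 window lay far from the rest.

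**Figure D3:**
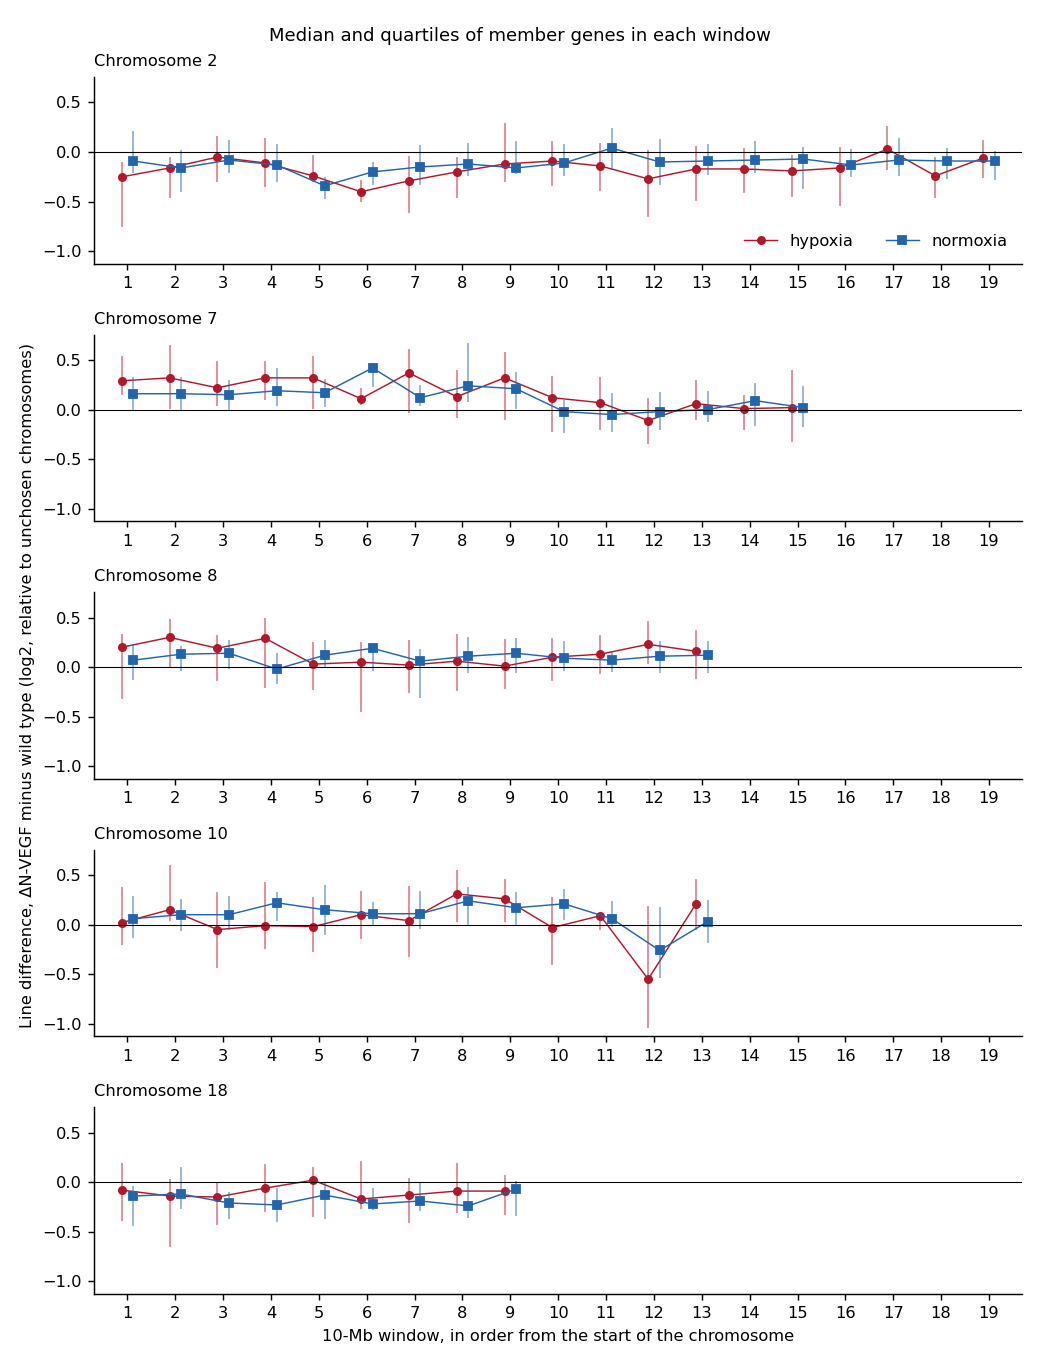
Line difference (log2, relative to the unchosen chromosomes) along each chosen chromosome in 10-Mb windows numbered from the start of the chromosome. Points are medians over member genes in hypoxia (red) and normoxia (blue), and vertical lines run between quartiles. Chromosomes 2 and 18 stay below 0 and chromosome 8 above it almost throughout, chromosome 7 comes down to 0 from window 10 on, and chromosome 10 drops in window 12.

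Chromosome 2 was lower in ΔN-VEGF cells along most of its length. Of 19 windows, 18 had a median below 0 in hypoxia and 18 in normoxia, and the windows spanned -0.40 to 0.03 in hypoxia and -0.34 to 0.04 in normoxia. The exceptions were different windows, 160 to 170 Mb in hypoxia with 0.03 over 66 genes and 100 to 110 Mb in normoxia with 0.04 over 33 genes. Without both normoxia replicates 2, 3 windows were above 0 in normoxia, at 0.08 (100 to 110 Mb), 0.01 (110 to 120 Mb) and 0.03 (140 to 150 Mb). The lowest window in hypoxia, at 50 to 60 Mb, held 20 genes with a median of -0.40, and without it the chromosome still stood at -0.14. The same window stood at -0.20 in normoxia, with and without both replicates 2. Its most expressed genes include Gpd2 (the mitochondrial glycerol-3-phosphate dehydrogenase) and Fmnl2 (an actin-organising formin). Gpd2 read 58.2, 57.3 and 59.4 CPM in wild-type hypoxia and 33.1, 34.5 and 35.2 CPM in ΔN-VEGF hypoxia, and 135, 129 and 136 CPM against 111, 89.5 and 116 CPM in normoxia. Its samples did not overlap between lines in either condition, with line differences of -0.77 and -0.35. Fmnl2 differed by -0.37 in hypoxia and by -0.05 in normoxia, where its samples overlapped.

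Chromosome 18 was lower in all 9 windows in normoxia and in 8 of 9 in hypoxia. The windows spanned only -0.24 to -0.07 in normoxia and -0.17 to 0.02 in hypoxia, and the SD over windows was 0.0581 and 0.0573, the smallest in hypoxia of the 5 chromosomes. The next window, at the end of the chromosome, held 2 members and was not summarised. The largest window, at 30 to 40 Mb with 98 genes, stood at -0.23 in normoxia and -0.06 in hypoxia, and 20.4% and 38.8% of its genes were higher in ΔN-VEGF cells. Leaving out both normoxia replicates 2 brought the last window, at 80 to 90 Mb, to 0.02 and left the other 8 between -0.27 and -0.15. In the lowest window in hypoxia, at 50 to 60 Mb with a median of -0.17, the most expressed genes went in different directions. Lox, which crosslinks collagen, was higher in ΔN-VEGF hypoxia by 0.70, Prrc1 was higher by 0.34, and Lmnb1, which encodes lamin B1, was lower, with -1.19.

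Chromosome 8 was higher in all 13 windows in hypoxia and in 12 of 13 in normoxia, but its profile was not the same in the 2 conditions. Without both normoxia replicates 2, the windows at 30 to 40 Mb and 60 to 70 Mb stood at -0.16 and -0.01 in normoxia. In hypoxia the first 40 Mb, with 128 genes, stood at 0.23 and the rest, with 477 genes, at 0.10, a difference of 0.13. At the same boundary the values in normoxia were 0.09 and 0.10. The highest window in hypoxia, at 10 to 20 Mb, had a median of 0.30 over 33 genes and stood at 0.13 in normoxia and at 0.03 there without both replicates 2. It holds Col4a1 and Col4a2, which lie head to head and encode the chains of the main collagen IV of basement membranes, and Lamp1 of the lysosomal membrane. Col4a1 read 1000, 1070 and 1020 CPM in wild-type hypoxia and 2600, 2420 and 2460 CPM in ΔN-VEGF hypoxia. In normoxia it read 1000, 539 and 943 CPM in wild-type cells and 845, 802 and 842 CPM in ΔN-VEGF cells. The lines were thus far apart in hypoxia and overlapped in normoxia. Col4a1 and Col4a2 belonged to the longest run of neighbouring members on chromosome 8 with a difference of at least 0.5, which held 5 genes from Irs2 to Naxd. Lamp1 differed by 0.02 in hypoxia and 0.16 in normoxia and overlapped in both.

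Chromosome 7 changed along its length. The boundary with the largest difference between the medians on its sides lay at 90 Mb, where it was found in hypoxia, and the same boundary was found in normoxia. The 489 members before it stood at 0.28 in hypoxia and 0.17 in normoxia, and the 347 members after it at 0.04 and 0.00, close to the reference. Before the boundary 77.5% of members were higher in ΔN-VEGF hypoxia and 75.1% in normoxia, against 55.6% and 49.0% after it. All 9 windows before the boundary were above 0 in both conditions, from 0.11 to 0.37 in hypoxia and from 0.12 to 0.42 in normoxia. The 6 windows after it ranged from -0.11 to 0.12 in hypoxia and from -0.05 to 0.09 in normoxia. Without both normoxia replicates 2 the windows in normoxia ranged from 0.06 to 0.56 before the boundary and from -0.10 to 0.16 after it. The windows of the 2 parts then overlapped, with 0.16 at 130 to 140 Mb above several windows before the boundary. The shift of chromosome 7 was thus larger in the part from the start of the chromosome to about 90 Mb.

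The samples showed the same split. Before the boundary the wild-type hypoxia samples stood at -0.10, 0.00 and -0.08 and the ΔN-VEGF hypoxia samples at 0.24, 0.22 and 0.20. In normoxia they stood at -0.13, -0.24 and -0.17 against 0.03, 0.03 and -0.02. After the boundary the samples of the lines overlapped in both conditions, with 0.01, 0.08 and 0.00 against 0.08, 0.08 and 0.07 in hypoxia. The overlap in hypoxia rested on wild-type replicate 2, without which ΔN-VEGF samples were higher after the boundary too, with line differences of 0.31 before it and 0.06 after it. The part before minus the part after was between -0.16 and -0.08 in all 6 wild-type samples and between 0.03 and 0.16 in all 6 ΔN-VEGF samples. Replicates 2 widened the split in normoxia: without both, the part before stood at 0.12 and the part after at 0.01, a difference of 0.12 in place of 0.17. The position was 90 Mb under each of the other scalings, filters and left-out samples, and moved to 80 or 100 Mb with windows of 20 Mb and to 95 Mb in normoxia with windows of 5 Mb. A boundary can be found on any chromosome, and by size this one ranked 6 of 20 in hypoxia, behind chromosomes whose boundary cut off an end of 22 to 62 genes. At the boundaries found on chromosomes 1, 5 and 11 the differences were 0.25, -0.36 and 0.16 in hypoxia and 0.33, -0.35 and 0.21 in normoxia. The boundaries found on chromosomes 2, 8, 10 and 18 (differences of -0.11, 0.13, -0.15 and 0.05 in hypoxia) had differences of -0.02, -0.01, -0.01 and 0.02 in normoxia.

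Genes with well-known roles lay on both sides of the chromosome 7 boundary. In the window before it that was highest in hypoxia, at 60 to 70 Mb with 0.37 over 25 genes (and lowest of the 9 in normoxia, with 0.12), Igf1r, the receptor for insulin-like growth factors, read 223, 220 and 233 CPM in wild-type hypoxia and 343, 333 and 340 CPM in ΔN-VEGF hypoxia. In normoxia it read 126, 114 and 129 CPM against 149, 134 and 152 CPM. No sample overlapped between lines, and the line differences were 0.59 and 0.24. Tjp1, which encodes the junction protein ZO-1, differed by 0.78 in hypoxia and 0.07 in normoxia, and Lrrk1, a kinase, went the other way in hypoxia with -0.28. In normoxia its samples overlapped, with -0.13 and with 0.00 when both replicates 2 were left out. The glycolytic enzyme Gpi1 (30 to 40 Mb) differed by 0.41 and 0.37 and the glycogen synthase Gys1 (40 to 50 Mb) by 0.62 and 0.30. The normoxia samples of Gys1 overlapped. Without both replicates 2 the normoxia differences were 0.46 for Gpi1 and 0.48 for Gys1. Beyond the boundary the hypoxia-induced peptide hormone gene Adm differed by 0.03 and -0.29, the collagen chaperone Serpinh1 by 0.41 and -0.18, and the mitophagy receptor Bnip3 by 0.43 and 0.34, so single genes after the boundary were shifted too.

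Chromosome 10 was higher in 12 of 13 windows in normoxia and in 8 of 13 in hypoxia. In hypoxia the highest windows lay in the 70 to 90 Mb region, where windows of 74 and 118 genes stood at 0.31 and 0.26. Next came the last window, with 88 genes and 0.21. Of the 7 windows before 70 Mb, 3 were between -0.05 and -0.01 in hypoxia, and all 7 were between 0.06 and 0.22 in normoxia. The window at 70 to 80 Mb holds Col6a1 and Col6a2, neighbours that encode chains of collagen VI, and Bsg (basigin), a partner of lactate transporters. Bsg read 3510, 3730 and 3580 CPM in wild-type hypoxia and 6950, 7190 and 7000 CPM in ΔN-VEGF hypoxia, and 483, 581 and 479 CPM against 663, 689 and 641 CPM in normoxia. Its samples did not overlap between lines in either condition. Col6a1 and Col6a2 differed by 2.0 and 1.58 in hypoxia and by 0.40 and 0.26 in normoxia, where they overlapped and stood at -0.28 and -0.33 without both replicates 2. Without this window the chromosome stood at 0.13 in hypoxia.

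The window at 110 to 120 Mb of chromosome 10 went against its chromosome, with a median of -0.55 in hypoxia and -0.26 in normoxia over 29 genes, and of -0.11 in normoxia without both replicates 2. The value rested on 12 consecutive members, Cnot2, Rab3ip, Cct2, Frs2, Yeats4, Cpsf6, Mdm2, Slc35e3, Nup107, Rap1b, Mdm1 and Dyrk2, which span 2.39 Mb at chr10:116485161-118870209. This run was chosen after its values were seen, as the longest run of neighbouring members whose line difference in hypoxia was at most -0.5. The next longest run on any chromosome held 6 genes (chromosome 5), and the longest runs of lower members on the other 4 chosen chromosomes held 2 to 4. All 12 genes were lower in ΔN-VEGF hypoxia, by log2 differences of -0.56 to -1.80 with a median of -1.18, and none of the 12 overlapped between lines. All 12 were also lower in normoxia, from -0.27 to -0.91 with a median of -0.57, and 9 of them did not overlap. The other 17 genes of the window had medians of 0.10 and 0.15, and the genes on either side of the run, Zfc3h1 and Cand1, differed by -0.02 and 0.29 in hypoxia. Without the run the chromosome stood at 0.18 in hypoxia.

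The values of 4 genes of the run show how it looked in single samples. Mdm2, the ubiquitin ligase that holds p53 in check, read 303, 261 and 303 CPM in wild-type hypoxia and 131, 121 and 133 CPM in ΔN-VEGF hypoxia. In normoxia it read 100, 148 and 96.7 CPM in wild-type cells and 82.9, 70.7 and 83.6 CPM in ΔN-VEGF cells. Every ΔN-VEGF sample was below every wild-type sample of the same condition. Cnot2, a subunit of the CCR4-NOT deadenylase, read 276, 237 and 285 CPM in wild-type hypoxia against 112, 113 and 116 CPM in ΔN-VEGF hypoxia, and 426, 343 and 415 CPM against 258, 132 and 271 CPM in normoxia. Cct2, a subunit of the cytosolic chaperonin and the most abundant of the 12, read 2080, 2110 and 2140 CPM in wild-type hypoxia against 906, 932 and 942 CPM in ΔN-VEGF hypoxia. In normoxia Cct2 read 2080, 2960 and 2230 CPM against 1670, 1220 and 1820 CPM. These genes, too, did not overlap between lines in either condition. Nup107, of the nuclear pore, read 150, 150 and 153 CPM against 45.0, 46.4 and 46.6 CPM in hypoxia, but in normoxia 130, 413 and 129 CPM against 144, 154 and 154 CPM, so its lower mean in normoxia rested on wild-type replicate 2.

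Over the whole run the wild-type hypoxia samples stood at 0.39, 0.39 and 0.42 and the ΔN-VEGF hypoxia samples at -0.68, -0.68 and -0.64 (median over the 12 genes of centred log2 CPM). In normoxia the wild-type samples stood at 0.18, 0.70 and 0.23 and the ΔN-VEGF samples at 0.02, -0.48 and 0.06. The lines were apart in every sample, but both normoxia replicates 2 widened the distance. Without both, the median normoxia difference of the run was -0.29 and 10 of 12 genes were lower, with -0.40 (11 lower) without the wild-type replicate alone and -0.45 (12 lower) without the ΔN-VEGF replicate alone. Rows inside the same 2.39 Mb that the rule left out, being non-coding or below its level limit, numbered 13 at a mean of at least 0.1 CPM, and 10 of them were lower in ΔN-VEGF hypoxia and 12 in normoxia. Of 3791 such rows on the unchosen chromosomes 55.5% were lower in hypoxia and 62.1% in normoxia. The long non-coding RNA 4933412E12Rik, whose row overlaps that of Rab3ip, differed by -1.66 in hypoxia and -1.04 in normoxia, and Cpm, which encodes carboxypeptidase M, by -2.94 and -1.15 at under 2 CPM in every sample. Both were chosen after their values were seen. Reads of 4933412E12Rik and Rab3ip may be shared, since the strand setting of the counting is not stated.

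**Figure D4:**
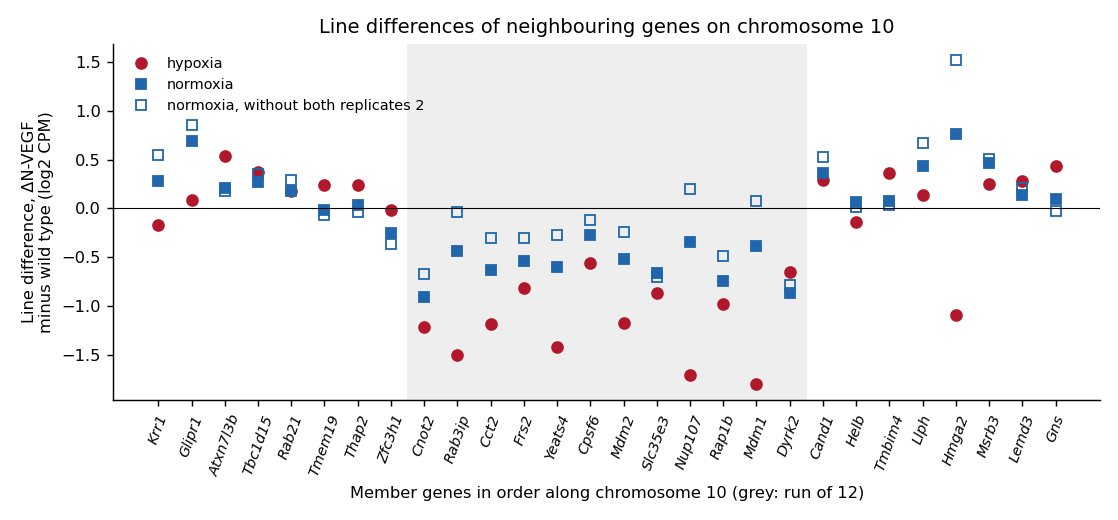
Line difference (ΔN-VEGF minus wild type, log2 CPM) of 28 neighbouring member genes on chromosome 10, in their order along the chromosome, in hypoxia (red circles), normoxia (blue squares) and normoxia without both replicates 2 (open squares). The 12 genes of the run (grey) lie at -0.56 or below in hypoxia, while of the 16 genes around it Hmga2 alone does.

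The size of the shifts varied with expression level, and so did the reference. With the members of each chromosome split into 3 equal classes by mean CPM, chromosome 10 stood at -0.02, 0.19 and 0.29 in hypoxia from low to high, chromosome 8 at 0.01, 0.12 and 0.19, and chromosome 7 at 0.11, 0.17 and 0.21. Chromosomes 2 and 18 ran from -0.22 to -0.05 and from -0.21 to -0.01. The reference genes ran from -0.11 to 0.09 over the same classes. That is as wide a run as on chromosomes 2, 7, 8 and 18, or wider, so the gradients there were not particular to them. Chromosome 10 alone had a wider one. In normoxia the reference ran from -0.05 to 0.03, and chromosome 18 stood at -0.27, -0.16 and -0.19. The 2 parts of chromosome 7 stood apart in every class, with 0.21, 0.31 and 0.29 before the boundary against -0.01, 0.02 and 0.13 after it in hypoxia.

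Rows that the rule left out gave a partly separate view of the same samples. Protein-coding genes at 0.1 to 1 CPM, relative to such genes elsewhere, stood at 0.17 on chromosome 7 (203 genes), 0.19 on chromosome 8 (91), 0.03 on chromosome 10 (94), -0.08 on chromosome 2 (176) and -0.12 on chromosome 18 (58) in hypoxia. On chromosome 7 the 128 genes before the boundary stood at 0.23 and the 75 after it at -0.06. In normoxia the low genes stood at -0.08 on chromosome 2, 0.09 on chromosome 10 and -0.31 on chromosome 18, but at -0.02 on chromosome 7 and 0.00 on chromosome 8, where the members were at 0.12 and 0.10. Non-coding rows at 0.1 CPM or more did not all follow the members. The lincRNAs stood in hypoxia at -0.23 on chromosome 2 (30 rows), 0.14 on chromosome 7 (41), 0.22 on chromosome 8 (43) and -0.36 on chromosome 18 (12), but at -0.20 on chromosome 10 (43), and on chromosome 7 at 0.12 before the boundary against 0.23 over 11 rows after it. The other non-coding and pseudogene rows stood at -0.10, 0.16, 0.17 and 0.07 on chromosomes 2, 7, 8 and 10 and at 0.05 on chromosome 18. Neighbouring members resembled each other only weakly. The rank correlation between adjacent members in hypoxia was 0.14 on chromosome 7, 0.01 on chromosome 2, 0.13 on chromosome 8, 0.06 on chromosome 10 and 0.16 on chromosome 18, against 0.11 on the other chromosomes.

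The genes with the largest line differences stood far outside these shifts. They were the 2 highest and 2 lowest per chromosome in hypoxia among members that averaged 10 CPM or more and whose samples did not overlap between lines there. The choice itself thus fixed that both directions appear on every chromosome. Rtn4rl2, Mmp9 and Arrb1 passed the 10 CPM limit only through ΔN-VEGF hypoxia (means of 51.0, 31.6 and 33.6 CPM). Their means were below 10 CPM in each other group. On chromosome 2 Rtn4rl2, a Nogo receptor relative, read 4.23, 4.35 and 3.34 CPM in wild-type hypoxia and 55.7, 50.1 and 47.2 CPM in ΔN-VEGF hypoxia, a difference of 3.67, and it was also higher in normoxia (2.32) without overlap. Mmp9, a matrix metalloproteinase, differed by 3.09 in hypoxia and -0.26 in normoxia, Slc43a3 by -2.16 and -0.15, and the cell-cycle transcription factor Mybl2 by -1.94 and 0.84. Without both replicates 2 the normoxia differences were 1.75 for Rtn4rl2, -1.73 for Mmp9, 0.11 for Slc43a3 and 1.43 for Mybl2. On chromosome 7 Igf2, a fetal growth factor encoded by an imprinted gene, read 0.208, 0.0685 and 0.127 CPM in wild-type hypoxia, from 8, 2 and 5 counts, and 49.7, 46.7 and 48.0 CPM in ΔN-VEGF hypoxia. Its log2 difference of 8.09 depends on the prior count at so few reads. In normoxia Igf2 read 6.48, 0.0464 and 3.58 CPM against 1.25, 32.9 and 1.54 CPM, so that replicates 2 went opposite ways and the difference changed from 1.63 to -1.76 without them. Arrb1 (β-arrestin 1) differed by 1.75 in hypoxia and -0.88 in normoxia, with no overlap in either, and the cell-cycle genes Ccne1 (cyclin E1) and E2f8 by -2.04 and -1.51 in hypoxia. In normoxia Ccne1 and E2f8 overlapped and went the other way, with 1.03 and 0.83 (1.41 and 1.29 without both replicates 2).

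On chromosome 8 Prag1 differed by 2.40 in hypoxia and -0.35 in normoxia (-0.55 without both replicates 2). The replication helicase subunit Mcm5 and the cell-division gene Shcbp1 differed by -1.45 and -1.31 in hypoxia. In normoxia Mcm5 and Shcbp1 likewise overlapped, with 1.07 and 0.85 (1.74 and 1.38 without both replicates 2). On chromosome 10 Dcn, which encodes the collagen-binding proteoglycan decorin, read 6.12, 5.51 and 5.91 CPM in wild-type hypoxia and 60.5, 60.4 and 61.7 CPM in ΔN-VEGF hypoxia, a difference of 3.37. In normoxia Dcn read 57.0, 10.8 and 54.7 CPM against 47.2, 79.1 and 46.7 CPM and overlapped, with a difference of 0.79 that became -0.25 without both replicates 2. Enpp1, which generates pyrophosphate, differed by 2.12 in hypoxia and 0.39 in normoxia (-0.49 without both replicates 2), and the 2 largest falls on the chromosome, Mdm1 (-1.80) and Nup107 (-1.71), belong to the run. On chromosome 18 the endothelial lipase gene Lipg read 17.1, 15.3 and 17.8 CPM against 68.4, 63.6 and 65.2 CPM in hypoxia and 19.1, 29.7 and 18.3 CPM against 38.6, 42.6 and 40.0 CPM in normoxia. It was thus higher in ΔN-VEGF cells without overlap in both conditions, by 1.97 and 0.89, on a chromosome whose median was lower. Egr1, an immediate-early transcription factor, differed by 1.54 in hypoxia and 0.22 in normoxia, the lipopolysaccharide co-receptor gene Cd14 by -1.39 and -0.37, and the kinetochore gene Ska1 by -1.37 and 0.59. Without both replicates 2 the normoxia differences were 1.07 for Lipg, -0.25 for Egr1, -0.10 for Cd14 and 1.15 for Ska1. Of the extremes named, Rtn4rl2 and Lipg were apart in the same direction in normoxia, and Arrb1 in the opposite one.

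The response to hypoxia within each line is a contrast that did not enter the choice of chromosomes, although it shares samples with it. In wild-type cells 243 members (7.69%) were raised and 197 (6.24%) lowered after hypoxia (edgeR quasi-likelihood test, adjusted p below 0.05 over all tested genes and at least 2-fold), against 9.17% and 6.53% of all tested genes. The 5 chromosomes ranged from 6.94% to 9.21% raised and from 5.02% to 7.62% lowered. In ΔN-VEGF cells 405 members (12.8%) were raised and 422 (13.4%) lowered, against 14.6% and 12.7% of all tested genes. There chromosome 7 had 15.1% raised and 9.45% lowered, and chromosome 2 had 10.8% and 16.7%. With total counts in place of scaling by TMM, raised members made up 35.2% of the calls in place of 55.2% in wild-type cells, and 24.5% in place of 49.0% in ΔN-VEGF cells. Over all tested genes the percentages were 38.8% in place of 58.4% and 28.5% in place of 53.5%. Their median response moved from -0.07 to -0.30 and from -0.01 to -0.41 with total counts. The level of a whole chromosome rose after hypoxia, relative to the reference, by 0.11 (wild type) and 0.16 (ΔN-VEGF) on chromosome 7 and fell by 0.04 and 0.11 on chromosome 2, with an exact 2-sided permutation p of 0.1 in each, which is the smallest that 3 against 3 samples can give. The values were 0.04 (p = 0.1) and 0.03 (0.1) on chromosome 10, 0.01 (0.7) and 0.03 (0.4) on chromosome 8, and -0.01 (0.8) and 0.06 (0.3) on chromosome 18, by the same exact test.

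Genes of the hypoxia and stress response on these chromosomes were raised in both lines. Of 24 listed genes 23 were members, and 18 rose in wild-type cells and 19 in ΔN-VEGF cells, with 0 lowered in either (edgeR), against 9.17% and 14.6% of all tested genes raised. Without both normoxia replicates 2, wild-type cells raised 17 and lowered 1, Egr1, and ΔN-VEGF cells raised 19. Among the enzymes and regulators of low-oxygen metabolism, Bnip3 went from 13.7, 15.5 and 13.7 CPM to 327, 290 and 321 CPM in wild-type cells and from 19.5, 16.3 and 18.6 CPM to 421, 420 and 425 CPM in ΔN-VEGF cells. Egln1, the oxygen-sensing prolyl hydroxylase on chromosome 8, rose by 3.62 and 3.97 on the log2 scale, the pyruvate dehydrogenase kinase gene Pdk1 on chromosome 2 by 3.50 and 3.45, and Ldha on chromosome 7 by 2.49 and 2.18 (edgeR quasi-likelihood test, adjusted p between 8.2e-08 and 0.0004). Hmox1, the heme oxygenase on chromosome 8, went from 35.3, 43.7 and 31.6 CPM to 384, 402 and 389 CPM in wild-type cells and from 46.5, 59.4 and 46.9 CPM to 1060, 999 and 1030 CPM in ΔN-VEGF cells. Every hypoxia sample of these genes was above every normoxia sample of its line. Among the genes of the integrated stress response, Ddit3 (CHOP) rose by 2.54 and 4.37, Trib3 by 2.73 and 4.78 and Atf5 by 1.17 and 3.17. Pfkfb3 passed the 2-fold limit in ΔN-VEGF cells alone, with 1.66 against 0.79 in wild-type cells, and the difference between the responses did not pass (0.87, adjusted p = 0.12, edgeR). The members that did not pass were Egln2, Sgk1, Junb and Egr1. For Aldoa and Ddit3, whose symbols stand on more than 1 row, the row with the highest mean was used.

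Cell-cycle and DNA replication genes were lowered in ΔN-VEGF cells, and their change in wild-type cells depended on replicate 2. All 24 listed genes were members. In wild-type cells 1 rose and 7 fell, and in ΔN-VEGF cells 0 rose and 20 fell (edgeR), where 6.53% and 12.7% of all tested genes fell. The median log2 changes were -0.72 and -2.19 against -0.07 and -0.01 over all tested genes. Without both normoxia replicates 2, 2 rose (E2f1 and Mdm2) and 4 fell in wild-type cells, and the median there was 0.24 in place of -0.72. In ΔN-VEGF cells 19 then fell, and the median was -2.08. The gene that rose in wild-type cells was Mdm2, with 1.33 (adjusted p = 6.7e-05), which rose by 0.70 in ΔN-VEGF cells (0.0029, edgeR), short of 2-fold. Mcm5 went from 66.7, 423 and 61.4 CPM to 85.4, 103 and 90.5 CPM in wild-type cells and from 218, 352 and 211 CPM to 34.3, 34.5 and 32.6 CPM in ΔN-VEGF cells. Replicate 2 of wild-type normoxia stood at several times the level of replicates 1 and 3 for this gene, and Cdk1 read 54.6, 248 and 53.6 CPM there. The log2 responses of Cdk1 were -1.40 (wild type) and -2.51 (ΔN-VEGF), those of the mitotic kinase genes Plk1 and Aurka -2.72 and -2.08 against -2.98 and -2.67, and those of the spindle checkpoint gene Bub1b -2.06 and -3.12. In hypoxia 21 of the 24 were lower in every ΔN-VEGF sample, where 30.1% of all tested genes were, and the median line difference of the 24 was -0.81. In normoxia the median was 0.39, and 0.95 without both replicates 2, and 1 gene, Mdm2, was lower in every ΔN-VEGF sample, where 9.72% of all tested genes were. These genes lie on chromosomes that were shifted up as well as on those shifted down, and how far they moved the chromosome medians was not tested.

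**Figure D5:**
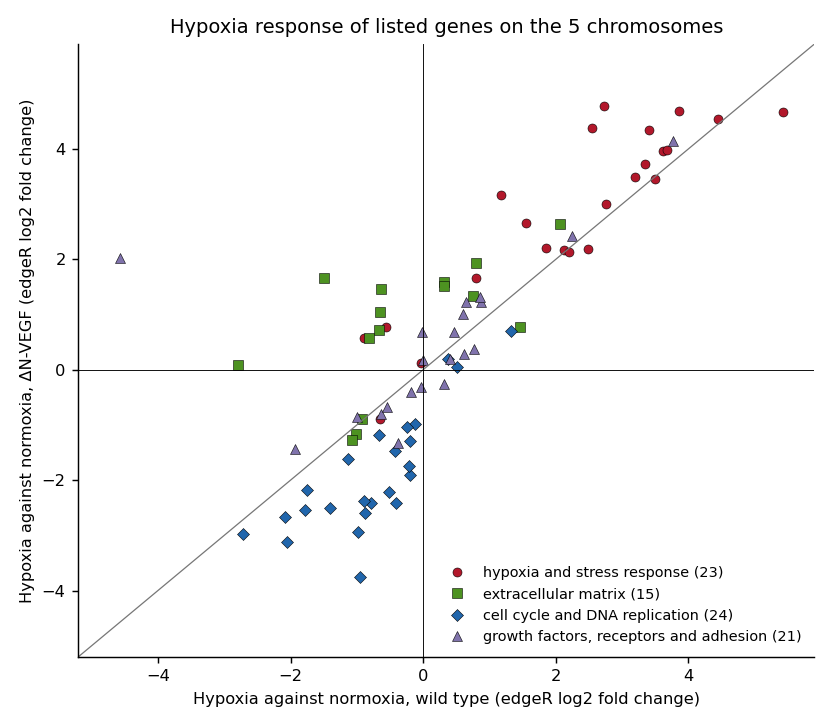
Hypoxia response (edgeR log2 fold change, hypoxia against normoxia) of the 83 listed genes on the 5 chromosomes, in wild-type cells (horizontal) and ΔN-VEGF cells (vertical), with the line of equal change. Stress-response genes (red circles) lie at the upper right, cell-cycle genes (blue diamonds) mostly below the line at the lower left, and several matrix genes (green squares) above it.

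Extracellular matrix genes moved in both directions. Of 20 listed genes 15 were members, of which wild-type cells raised 2 and lowered 4, while ΔN-VEGF cells raised 7 and lowered 2 (edgeR). Of all tested genes, 9.17% and 6.53% were raised and lowered in wild-type cells and 14.6% and 12.7% in ΔN-VEGF cells. Without both normoxia replicates 2 the counts were 2 and 7 in wild-type cells and 9 and 2 in ΔN-VEGF cells, and with a replicate block for the normoxia samples wild-type cells lowered 2. No test was made of the difference between these counts. Lox was the largest rise in both, from 1160, 756 and 1230 CPM to 4690, 3940 and 4580 CPM in wild-type cells and from 1270, 932 and 1210 CPM to 7290, 6880 and 7170 CPM in ΔN-VEGF cells. Col6a1 read 2670, 980 and 2460 CPM in wild-type normoxia and 1240, 1400 and 1260 CPM in wild-type hypoxia, against 2140, 3330 and 2080 CPM and then 5340, 5110 and 5140 CPM in ΔN-VEGF cells. Its response was -0.65 (adjusted p = 0.12, wild type) and 1.05 (0.014, ΔN-VEGF) by edgeR. The response of Dcn was -2.80 (adjusted p = 0.0011) with the wild type and 0.08 (0.90) with ΔN-VEGF (edgeR). Mmp2, a gelatinase on chromosome 8, and Fbn1 (fibrillin 1) on chromosome 2 fell in both lines, with -1.07 and -1.01 (wild type) and -1.27 and -1.16 (ΔN-VEGF). The thrombospondin gene Thbs1 rose in wild-type cells (1.46) and stood at 0.78 (adjusted p = 0.064, edgeR) in ΔN-VEGF cells.

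Growth factor, receptor and adhesion genes showed no common direction. Of 24 listed genes 21 were members, of which wild-type cells raised 2 and lowered 1, and ΔN-VEGF cells raised 6 and lowered 2 (edgeR). These counts lie near the background of 9.17% and 6.53% in wild-type cells and of 12.7% lowered in ΔN-VEGF cells, where 14.6% of all tested genes were raised. Hbegf on chromosome 18, which encodes an EGF-family ligand, went from 19.6, 66.6 and 19.2 CPM to 484, 458 and 483 CPM in wild-type cells and from 27.3, 69.1 and 25.8 CPM to 729, 702 and 741 CPM in ΔN-VEGF cells. Smad7, the inhibitor of TGF-β signalling on the same chromosome, rose by 2.25 and 2.42. Igf1r rose by 0.87 in wild-type cells, short of 2-fold, and by 1.22 in ΔN-VEGF cells, and the integrin gene Itgav by 0.85 and 1.31. Pdgfrb, a receptor for platelet-derived growth factor on chromosome 18, fell in both lines, with -1.94 and -1.44. In the run on chromosome 10, Mdm2 rose and Mdm1 fell in wild-type cells, and Rab3ip, Slc35e3, Nup107 and Mdm1 fell in ΔN-VEGF cells. The listed genes that were not members were Angpt2, Fbn2, Lum, Cdh11, Igf1, Vegfc and Sfrp1, all under the level limit, Ccn2, for which no row carried that symbol, and Adamts1, which lies on chromosome 16.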

How the data were processed

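RNA-seq counts of 12 samples were used. Per the methods of the study, the authors made TruSeq v2 libraries, sequenced 80-bp single reads, trimmed them with Trim Galore, aligned them with TopHat2 2.1.0 (Bowtie2 2.2.6) to GRCm38.p6 and counted them per gene with HTSeq 0.6.1, and the deposited values are raw counts of 54446 genes with their positions. The strand setting of the counting is not given in the sources used here, so overlapping genes are uncertain.

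Samples were grouped by their labels. Members followed the unscaled CPM, and printed CPM and log2 CPM (prior count of 2) were scaled by TMM factors (0.825 to 1.21). Windows of 10 Mb with at least 5 members were summarised by their median. A boundary needed at least 2 windows on each side. Hypoxia responses were fitted with edgeR 4.0.16 (R 4.3.3, quasi-likelihood test, 1 mean per group over 12 samples, Benjamini-Hochberg adjustment over 14724 genes that passed its filter on low counts, and all 3158 members did). Alternatives included DESeq2 1.42.0, other scalings, filters and windows, a replicate block and each sample left out. The code was tested on simulated data.

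The chromosomes, members and gene lists were chosen with earlier results of these data known. Genes were named by a rule: per chromosome the 2 largest rises and 2 largest falls between lines in hypoxia (mean of at least 10 CPM, no overlap), the 3 most expressed genes of the most extreme window in the chromosome's direction, and listed genes. Some genes that the rule names are not reported here. Other genes named, in the run on chromosome 10 and around it, were chosen after their values were seen. No 2 libraries were alike within sampling noise (chi-square per gene from 2.88 to 363). Samples with the same number deviated together between lines in normoxia, with correlations of 0.378, 0.498 and 0.355, although replicates 1 and 3 correlated about as much across numbers (0.347 and 0.358). A block for the normoxia samples alone, added after seeing the data, is given where it changed counts.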

Additional observations from a re-analysis of the deposited data

Results flagged for a closer look

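Among the listed genes on these chromosomes, 10 had a hypoxia response that differed between the lines by the test of the difference itself (edgeR quasi-likelihood test of the interaction, adjusted p below 0.05 over all tested genes). The share of all tested genes that passed is not given, so this count stands without a background. With all samples and no replicate block, all 10 responded more in the upward direction in ΔN-VEGF cells. The interaction is built from the same line differences that chose the chromosomes, so it gives no independent support to the shifts. Genes named only for their line difference or their window are not considered here. Dcn was also among the genes chosen for a large line difference in hypoxia, and Col4a1 and Col4a2 lie in a window chosen on that difference. The line difference in hypoxia is part of the interaction, so the values of these genes are a description.

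In the matrix group the log2 differences between the responses were 1.27 for Col4a1 and 1.2 for Col4a2 (chromosome 8), 1.14 for Col5a1 (chromosome 2), 0.59 for Serpinh1 (chromosome 7), 2.88 for Dcn and 3.16 for Lama4, a laminin chain (both chromosome 10). In the stress-response group they were 0.93 for Hmox1 (chromosome 8), 1.83 for Ddit3 (chromosome 10) and 2.0 for Atf5 (chromosome 7). In the growth factor group the value was 0.59 for Smad4 (chromosome 18), the shared mediator of TGF-β and BMP signals.

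The number depends on replicate 2 of wild-type normoxia. With all samples 3 of the stress-response genes, 6 of the matrix genes, 1 of the growth factor genes and 0 of the 24 cell-cycle genes passed, and without that replicate 13, 11, 13 and 24 did (17, 13, 16 and 24 without both normoxia replicates 2). No share of all tested genes is given for any of these settings. Line calls in normoxia also rose over all tested genes without that replicate, from 91 and 228 to 666 and 1191. The rise is thus not read as one about the lists. With 1 replicate block over both conditions 4, 4, 1 and 1 passed, and 8 of the 10 genes above were among them, while Dcn (2.79, adjusted p = 0.07) and Lama4 (3.05, adjusted p just above 0.05) were not (edgeR). With a replicate block for the normoxia samples alone, which keeps all samples, 12, 12, 6 and 16 passed, likewise without a background. The 1 direction then no longer held, since all 24 cell-cycle genes that passed without the replicate, and all 16 that passed with the block, responded more in the downward direction in ΔN-VEGF cells. With the block 1 stress-response gene, 1 matrix gene and 2 growth factor genes did so too. The block for the normoxia samples alone was added after seeing the data, as was the use on these lists of the left-out replicates, which had been planned for the chromosomes and for the counts of members. Lama4 read 8.19, 1.39 and 8.10 CPM in wild-type normoxia and 1.95, 2.60 and 1.73 CPM in wild-type hypoxia, against 6.07, 3.22 and 5.58 CPM and then 16.3, 15 and 15.8 CPM in ΔN-VEGF cells. For Smad4 the wild-type normoxia samples read 103, 101 and 102 CPM and the ΔN-VEGF normoxia samples 83.0, 77.9 and 81.5 CPM, and the hypoxia samples 159, 157 and 161 CPM against 196, 187 and 186 CPM. Smad4 was thus lower in ΔN-VEGF normoxia and higher in ΔN-VEGF hypoxia with no overlap in either condition.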

How the results depend on the processing

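None of the chromosome values and neither of the chromosome 7 differences changed sign under any alternative run, but the balance of raised and lowered members did turn. For each chromosome and condition 20 alternatives were run. In hypoxia the value of chromosome 7 moved by more than the spread between replicates with the mean over members (0.21), and that of chromosome 10 at a mean CPM of at least 5 (0.17), with genes of every biotype (0.14) and with the mean over members (0.14), and it ranged from 0.15 to 0.16 with single samples left out. In normoxia chromosome 7 moved to 0.07 without both replicates 2 and to 0.09 with mean CPM above 0.1, and ranged from 0.07 (without wild-type replicate 2) to 0.13 with single samples left out. Chromosome 2 moved to -0.07 without both replicates 2 and ranged from -0.11 to -0.07 (without ΔN-VEGF replicate 2). The difference between the parts of chromosome 7 moved to 0.12 in normoxia without both replicates 2 and ranged from 0.22 to 0.25 in hypoxia with single samples left out. The cause of these moves was not tested. The percent of windows with the sign of their chromosome stayed between 83.7 and 94.6 in hypoxia and between 85.5 and 95.7 in normoxia over 24 alternatives.

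In wild-type cells that balance turned from 243 raised and 197 lowered to 594 and 653 without a fold limit and to 191 and 351 with total counts. In ΔN-VEGF cells the counts were 405 and 422, 907 and 936 without a fold limit and 255 and 786 with total counts, and the balance turned to 415 and 411 with RLE size factors and to 420 and 418 without both normoxia replicates 2. The median of all genes shifts with total counts. Over all tested genes, total counts gave 1046 raised and 1652 lowered in place of 1350 and 962 in wild-type cells. In ΔN-VEGF cells they gave 1381 and 3469 in place of 2144 and 1864. Line calls in normoxia rose from 14 and 38 members to 156 and 142 without wild-type replicate 2, and from 91 and 228 to 666 and 1191 over all tested genes. They were 99 and 133 members without both replicates 2 (478 and 1088 over all tested genes). The DESeq2 Wald test gave 20 and 64 (133 and 414). A replicate block for the normoxia samples alone gave 33 and 68 (178 and 533). With 1 replicate block over both conditions the normoxia line calls were 16 and 32 (101 and 194). With that block 254 members were raised and 176 lowered in wild-type cells (1417 and 908), and 413 and 420 in ΔN-VEGF cells (2183 and 1867). For the responses the samples compared share only a number, with correlations of -0.0176 to 0.0652 between same-numbered deviations. In ΔN-VEGF cells each normoxia sample correlated best with the hypoxia sample of its own number, which was not so in wild-type cells.

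The shifts are medians over 302 genes or more, and are small against the spread of single genes.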
